A study of Mus musculus with 10 samples.

Results

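The chitinase and chitinase-like genes Chi3l1, Chi3l3, Chi3l4, Chia, Chit1 and Chid1 were followed in infrarenal aorta of mice with and without an elastase-induced abdominal aortic aneurysm (AAA). The members were found by the gene name printed beside each probe, and all 6 were present, among 35527 gene names on the array, each as 1 probe in 1 spot. All mice were male, 10-week-old C57BL/6J animals, and the whole treated aortic segment of 1 mouse went on each array. In the porcine pancreatic elastase (PPE) group, elastase at 1.5 U per mL in saline was infused into the isolated infrarenal aorta for 5 min at 100 mmHg. In the sham group the same infusion held saline without enzyme. Aortas were taken at 7 days, and each group held 5 arrays. On each array 500 ng of aortic RNA was labeled red (Cy5) and hybridized against a green (Cy3) universal mouse reference RNA. Dyes were not swapped, and values are log2 ratios of aorta over reference. The segment includes every layer of the wall with whatever infiltrated or adhered to it. In such tissue RNA, more cells of a type and more RNA per cell cannot be told apart.

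Chitinases are glycoside hydrolases of family GH18, which cut chitin, the N-acetylglucosamine polymer of insects, fungi and nematodes. Mammals make no chitin. Chia (acidic mammalian chitinase) and Chit1 (chitotriosidase) are the active enzymes. Chi3l1, Chi3l3 and Chi3l4 are secreted chitinase-like lectins that keep the fold but have lost the catalytic residues. Chi3l1 is made by macrophages, neutrophils, chondrocytes and vascular smooth muscle cells under inflammatory cytokines and is used as a serum marker of inflammation. Chi3l3 (Ym1) and Chi3l4 (Ym2) are rodent genes that arose by duplication, known from alternatively activated macrophages, and Ym1 also from neutrophils and their precursors. Chid1 is a distant, widely expressed relative found in lysosomes. The study followed Chi3l1 as a target of the microRNA miR-24.

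Which stretch of each transcript was read is shown by the last 30 bases of the 60-base probes of the 3 chitinase-like members. Capitals mark AATAAA, the signal for adding the poly(A) tail, which was searched for in each probe. It was present in the probes of Chi3l3 and Chia, so these read the very end of the transcript.
Chi3l1: cttacaggattgagggaccatactaattat
Chi3l3: atgcttgtttcttgctctcacAATAAAttc
Chi3l4: cacaaatgaacaaggactcctggcttactt
The longest run of bases shared by the Chi3l3 and Chi3l4 probes was 7. These genes are close copies, and a probe chosen for one can still bind transcripts of the other where they match in part, so the Chi3l4 values are uncertain. On mm9 the probes map to chr1:136086448-136086507 on the plus strand for Chi3l1, chr3:105950485-105950544 on the minus strand for Chi3l3 and chr3:106006584-106006643 on the minus strand for Chi3l4. The Chia probe lies at chr3:105934967-105935026 (plus), the Chit1 probe at chr1:136047897-136047956 (plus) and the Chid1 probe at chr7:148716061-148716120 (minus).

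The promoters of the 3 chitinase-like members are shown because these genes are the chitinase-like lectins the comparison centers on and because Chi3l3 and Chi3l4 are copies. Each line gives the 250 bases before the annotated start (RefSeq, GRCm38.p6), 5′ to 3′ on the gene's own strand. The RefSeq names are Chil1 for Chi3l1, Chil3 for Chi3l3 and Chil4 for Chi3l4. Capitals mark matches on either strand to GGGNNNNNCC (a kappa-B-type pattern), TTCNNNGAA (a STAT-type pattern) and the TATAAA box.
Chil1, chr1:134181906-134182155, plus strand: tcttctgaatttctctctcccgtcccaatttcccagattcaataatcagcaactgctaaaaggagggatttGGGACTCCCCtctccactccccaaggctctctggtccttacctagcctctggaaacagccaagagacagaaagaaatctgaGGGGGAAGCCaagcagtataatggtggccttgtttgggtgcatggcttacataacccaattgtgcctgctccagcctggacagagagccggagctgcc
Chil3, chr3:106167565-106167814, minus strand: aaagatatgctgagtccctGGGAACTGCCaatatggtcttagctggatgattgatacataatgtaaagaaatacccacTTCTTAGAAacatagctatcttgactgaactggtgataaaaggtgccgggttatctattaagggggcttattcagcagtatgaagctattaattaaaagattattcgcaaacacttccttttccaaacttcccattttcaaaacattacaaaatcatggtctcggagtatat
Chil4, chr3:106219480-106219729, minus strand: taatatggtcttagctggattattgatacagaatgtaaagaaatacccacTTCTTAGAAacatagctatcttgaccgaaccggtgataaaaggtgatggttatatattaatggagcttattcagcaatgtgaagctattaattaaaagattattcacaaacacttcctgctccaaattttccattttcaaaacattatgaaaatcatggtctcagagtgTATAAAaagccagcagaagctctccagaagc
Chil3 and Chil4 aligned over 222 columns with 90.5% identity, bases -221 to -1 of Chil3 lying against bases -249 to -29 of Chil4. The best local match of Chil1 to either of them was 20 columns long. Both Chil3 and Chil4 carried TTCTTAGAA at matching places of that alignment, and TTCNNNGAA occurred in 7.02% of 32851 promoter windows of this length. Chil1 held the kappa-B-type pattern at -179 to -170 and at -98 to -89, and Chil3 at -231 to -222, a pattern present in 45.8% of all windows. TATAAA stood at -31 to -26 in Chil4 and was found in 12.4% of windows. Of 3 further patterns searched, TTCNNNNGAA (5.85% of windows) and GAGGAA (23.3%) matched none of these 3 windows, and TTNCNNAA, a C/EBP-type pattern (36.8%), matched all 3. A match of letters is a description and not a binding site.

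The 10 arrays lay on 5 slides. The first slide carried 1 sham array (sham 1) with 2 PPE arrays (PPE 1, PPE 2), and it was scanned on a day of its own. The second slide carried 2 of each (sham 2, sham 3, PPE 3, PPE 4), and the remaining arrays had a slide each. Red signal was well above background on 37.6% (sham 5) to 65.8% (PPE 1) of spots, and no spot was saturated. Over 22520 gene names tested with limma, 3122 (13.9%) were higher and 2244 (9.96%) lower in PPE at an adjusted p under 0.01. With each array centered on its median in place of loess, the counts were 408 and 8, so higher genes made up 98.1% of calls in place of 58.2%, and the median change of all genes was 0.41 in place of 0.02. In marker genes, smooth muscle and endothelium were present on all arrays, as the tissue label has it, and so were adipocytes and skeletal muscle, with a mean log2 ratio over each of these 4 lists of at least 1.52 on every array.

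Chi3l1 and Chi3l3 were higher in PPE than in sham, Chi3l4 gave signal above background in 4 of 5 PPE and 0 of 5 sham aortas, and Chia, Chit1 and Chid1 showed no detectable difference. Of the 6 members, 3 were bright enough to be tested with limma, and 2 of these 3 were higher and 0 lower, against 13.9% of all genes higher and 23.8% called in either direction. Chi3l1 reached the required 5 arrays through the PPE group alone, so its place among the tested genes depended on its PPE level, and nothing is read from this share. For 2 of the 6 members, both higher in PPE, no PPE value lay within the sham range, which was so for 15% of all genes tested in that direction and for 25.5% in either.

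**Figure D1:**
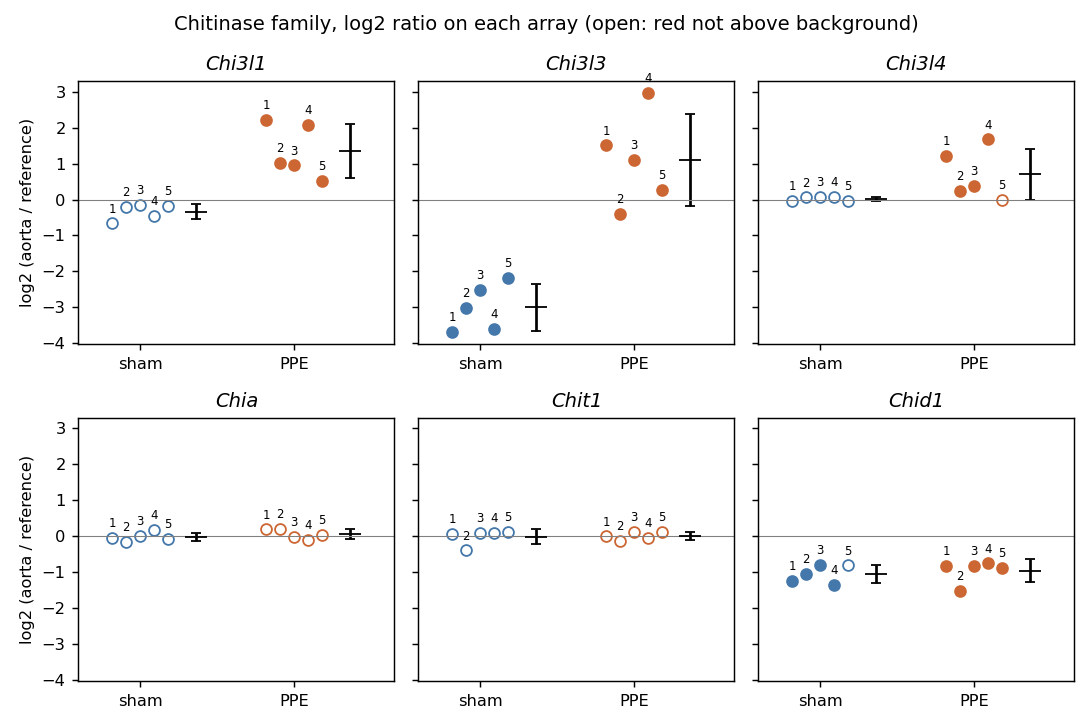
Log2 ratio of aorta over reference for the 6 members, with 1 point per array numbered by replicate, 5 sham (blue) and 5 PPE (orange) arrays per panel, and the group mean with its SD beside them. Open points had red signal not well above background. All PPE points of Chi3l1 and Chi3l3 lie above all sham points, PPE 5 of Chi3l4 lies among the sham points, and the groups overlap for Chia, Chit1 and Chid1.

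Chi3l1 had log2 ratios of -0.67, -0.21, -0.15, -0.45 and -0.18 on sham arrays 1 to 5. On PPE arrays 1 to 5 they were 2.22, 1.01, 0.95, 2.08 and 0.52. Every PPE array lay above every sham array, with PPE 1 and PPE 4 highest and PPE 5 lowest. The means were -0.33 ± 0.22 (SD, n = 5) in sham and 1.36 ± 0.75 (SD, n = 5) in PPE. The change was 1.69 on the log2 scale (SE 0.30, 95% interval 1.02 to 2.35, limma adjusted p 0.00113). Within slide 1 the difference was 2.28, and within slide 2 it was 1.70.

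The aortic signal of Chi3l1 was close to background in sham. Red signal minus local background was 7.56 to 25.8 scanner units in sham, not well above background on any array, and 33.1 to 1199 in PPE, above background on all 5. The sham level is thus only bounded. On the red channel the PPE mean of Chi3l1 was 3.90-fold above the probe's own dim sham signal, a ratio of group means without an interval. With the offset added to dim signals lowered to 16, the log2 change was 2.10 (limma adjusted p 0.000185) in place of 1.69. The scanner's own log ratio, which also differs in background handling and normalization, gave 3.29 (limma adjusted p 9.63e-06). What part the offset has in the value of 3.29 was not tested. The reference signal at this spot was 66.0 to 164 on 9 arrays and 482 on PPE 4. A brighter reference lowers the ratio, so the ratio of PPE 4 is less certain, and why its reference was brighter was not tested. By red signal PPE 4 (868) stood second to PPE 1 (1199), as it did by log2 ratio. Median centring gave 1.51 with a limma adjusted p of 0.0466, which misses the threshold of 0.01, while the median of all genes itself rose to 0.41.

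**Figure D2:**
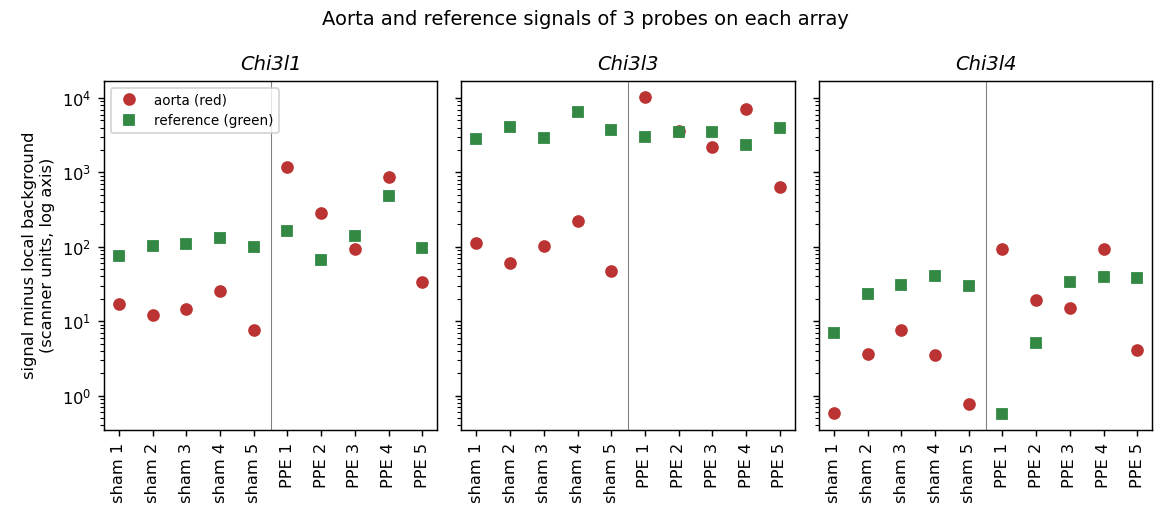
Signal minus local background, in scanner units on a log axis, of the Chi3l1, Chi3l3 and Chi3l4 probes on the 5 sham and 5 PPE arrays, with aorta in red and the common reference in green. Red Chi3l3 signal runs from 47.4 to 221 in sham and from 633 to 10358 in PPE while green stays between 2318 and 6584, and the green Chi3l1 signal of PPE 4 stands above that of the other arrays.

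Chi3l3 had the largest change among the members tested with limma. Its log2 ratios were -3.69, -3.01, -2.51, -3.61 and -2.18 on sham arrays 1 to 5. They were 1.51, -0.40, 1.11, 2.96 and 0.27 on PPE arrays 1 to 5. The groups did not overlap, with PPE 4 highest and PPE 2 lowest among PPE arrays. The means were -3.0 ± 0.66 (SD, n = 5) in sham and 1.09 ± 1.28 (SD, n = 5) in PPE. The change was 4.09 on the log2 scale (SE 0.55, 95% interval 2.89 to 5.29, limma adjusted p 0.000146), or 17-fold. Only 41 of the 22520 tested names rose more.

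Unlike Chi3l1, Chi3l3 was well above background on all 10 arrays, so its sham level is a measured one. Red signal minus background was 47.4 to 221 scanner units in sham and 633 to 10358 in PPE. The green signal was 2318 to 6584, so the reference RNA was bright at this spot and the ratio was below 0 in every sham array. On the red channel alone, with the same offset added, the change was 3.69 on the log2 scale. The difference was 4.25 within slide 1 and 4.79 within slide 2, and it stayed between 3.62 and 4.46 when each array was left out in turn.

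Chi3l4 was well above background on 0 of 5 sham and 4 of 5 PPE arrays, which is below the 5 arrays required for the limma test. Its log2 ratios were -0.03, 0.06, 0.07, 0.07 and -0.04 on sham arrays 1 to 5. They were 1.21, 0.24, 0.38, 1.67 and -0.01 on PPE arrays 1 to 5. The 4 PPE arrays with signal above background lay above all sham arrays, and PPE 5 lay among them. The difference of the means was 0.67 on the log2 scale, from 0.02 ± 0.05 (SD, n = 5) to 0.70 ± 0.71 (SD, n = 5), with a two-sided exact permutation p of 0.0317 where the smallest possible is 0.00794. On the red channel, with the offset added, the PPE mean of Chi3l4 was 1.35-fold above the floor for signal well above background. The offset lowers this ratio too, and PPE 5 was not above background. The value and the call moved with the processing. The scanner's log ratio gave 2.80 (exact permutation p 0.0159), the series matrix 2.73 (exact permutation p 0.0238) and an offset of 16 gave 1.08 (exact permutation p 0.0317). Median centring gave 0.39 (exact permutation p 0.206), limma over all probes with no filter gave an adjusted p of 0.129, and leaving out any 1 sham array gave exact permutation p values of 0.0952 to 0.119. Among PPE arrays, PPE 4, PPE 1 and PPE 3 were the highest in that order for both Chi3l4 and Chi3l3, while PPE 2 lay above PPE 5 for Chi3l4 and below it for Chi3l3. What part probe cross-binding has in the Chi3l4 values was not tested.

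The active chitinases were not seen. The Chia probe was above background on 0 of 10 arrays, with red signal minus background of -1.47 to 12.5 scanner units, and log2 ratios of -0.15 to 0.17 in sham and -0.11 to 0.21 in PPE. The difference was 0.08 (exact permutation p 0.325). The Chit1 probe was also above background on 0 of 10 arrays, with red signal minus background of -6.92 to 22.4 scanner units. Its log2 ratios were -0.40 to 0.12 in sham and -0.13 to 0.13 in PPE, and the difference was 0.02 (exact permutation p 0.897). Ratios of 2 dim signals sit near 0 after the offset, so these values bound neither gene's change. Whether either enzyme changed could not be detected with these probes.

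Chid1, the lysosomal relative, was above background on 9 of 10 arrays and did not pass the test. Its log2 ratios were -1.24, -1.05, -0.80, -1.36 and -0.81 on sham arrays 1 to 5 and -0.82, -1.52, -0.81, -0.75 and -0.89 on PPE arrays 1 to 5. The groups overlapped throughout. The change was 0.09 on the log2 scale (SE 0.17, 95% interval -0.28 to 0.47, limma adjusted p 0.726).

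Chi3l1 was then set against each relative on the same array, to ask whether it changed by more or by less. For each array the log2 ratio of the relative was subtracted from that of Chi3l1, and the PPE and sham arrays were compared by a two-sided exact permutation test, over 5 relatives. Against Chi3l3 the difference ran from 2.0 to 3.16 in sham and from -0.89 to 1.41 in PPE. The change of Chi3l1, as read after the offset, was thus smaller than that of Chi3l3 by 2.40 (SE 0.44) on the log2 scale. It exceeded that of Chid1 by 1.60 (SE 0.32) and that of Chi3l4 by 1.02 (SE 0.14). The groups did not overlap in these 3 differences, and each exact permutation p, raw and adjusted by Benjamini-Hochberg over the 5 relatives, was 0.00794, the smallest that this design allows. Chia and Chit1 were not above background on any array, so subtracting them restates the change of Chi3l1 and no comparison with them is drawn.

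Chi3l1 and Chi3l4 were not above background in sham, so the sizes of these differences are uncertain. Since the sham level of Chi3l1 is only bounded, its change may be larger than the value read. Whether it was smaller than that of Chi3l3, or larger than that of Chi3l4, can therefore not be decided from these values. With the scanner's log ratio, which differs from the main processing in background handling and normalization, the difference from Chi3l3 was -1.46 (exact permutation p 0.0198). The difference from Chi3l4 was then 0.49 (exact permutation p 0.540), which misses the threshold of 0.05. With the offset alone lowered to 16, the values were -2.25 for Chi3l3 and 1.03 for Chi3l4. The difference from Chid1 lay between 1.02 and 2.99 under the alternatives tried.

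**Figure D3:**
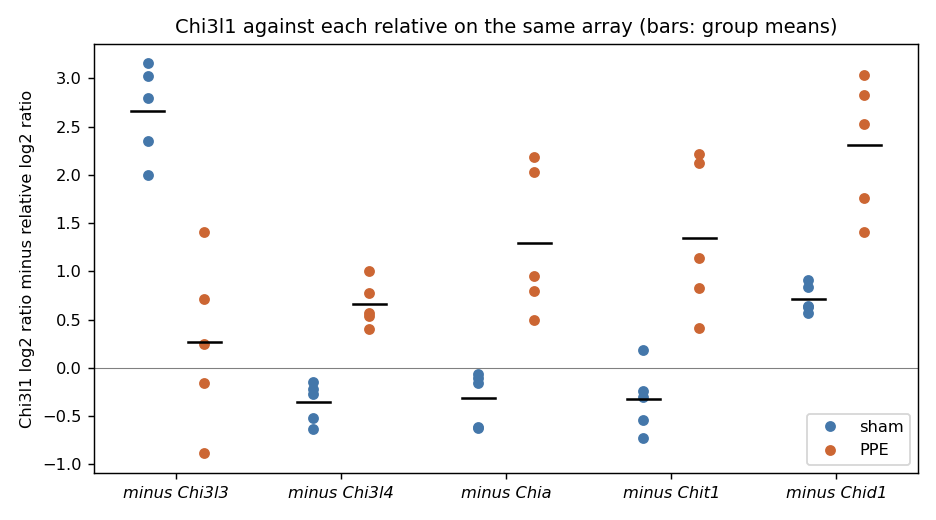
Log2 ratio of Chi3l1 minus that of each relative on the same array, for 5 sham (blue) and 5 PPE (orange) arrays, with bars at the group means. PPE points lie below sham points for Chi3l3 (means apart by 2.40) and above them for Chi3l4 (1.02) and Chid1 (1.60), while the Chia and Chit1 columns, whose probes were not above background, mirror the change of Chi3l1 itself.

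Of 3 other genes of GH18 that were tested, 0 were called by limma or by SAM, and 0 had an unadjusted limma p under 0.05. Bclp2 (RefSeq Chil5), a further chitinase-like gene of the Chi3l3 cluster, changed by 0.19 (SE 0.24, limma adjusted p 0.591), and its second probe was above background on 0 of 10 arrays. Ctbs, the lysosomal chitobiase, changed by 0.17 (SE 0.12, limma adjusted p 0.317) and Ovgp1, the oviduct-specific glycoprotein, by -0.15 (SE 0.15, limma adjusted p 0.477). BC051070 (RefSeq Chil6) was above background on 4 arrays and was not tested with limma, with a difference of -0.21 (exact permutation p 0.238). No probe was matched to Chia2. With the members counted in, the called GH18 genes were Chi3l1 and Chi3l3. Over all tested genes 23.8% were called in either direction, and with so few genes nothing is read from these counts.

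The study ties Chi3l1 to miR-24, whose mature form has the following sequence (RefSeq), with the seed, bases 2 to 8, in capitals.
mmu-miR-24-3p: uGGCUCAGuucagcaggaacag
The same mature sequence comes from Mir24-1, at chr13:63301251-63301272 (GRCm38.p6, plus strand), and from Mir24-2 on chromosome 8. MicroRNA was not measured on these arrays. The study read it from the same aortic samples on separate arrays and reported miR-24 lower in PPE at 7 days. The host gene of Mir24-1, 2010111I01Rik (RefSeq Aopep, an aminopeptidase gene), had log2 ratios of 1.58 to 2.14 in sham and 0.35 to 0.92 in PPE, without overlap. It fell by 1.35 on the log2 scale (SE 0.15, limma adjusted p 3.68e-05), against an increase of Chi3l1 on the same arrays. Its other probe gave a difference of -1.69. With median centring the value was -0.66 with a limma adjusted p of 0.498, short of the threshold. The mRNA of the host gene does not measure miR-24. Per the study, the primary transcript of miR-24-1 may be made independently of the cluster gene.

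Among genes for receptors and binding partners of the Chi3l1 protein, 4 of 6 tested genes rose and 1 fell, with a median change of 0.61 beside 0.02 over all genes. Cd44, a hyaluronan receptor and coreceptor, rose by 2.46 (SE 0.24, limma adjusted p 1.44e-05), and Sdc1, the heparan sulfate proteoglycan syndecan-1, by 1.47 (SE 0.12, limma adjusted p 3.60e-06). Tmem219, the coreceptor that pairs with Il13ra2, rose by 0.69, and Il13ra2, the receptor to which Chi3l1 binds, by 0.54. Itgb3, an integrin beta chain, fell by 0.66 (limma adjusted p 0.00943), while its partner Itgav had a change of 0.04 that was not called. Ptgdr2 (in the files Gpr44) and Ager were too dim to be tested. With 1 array left out, between 2 and 4 of these genes were called higher, with 2 when the array was sham 1, sham 2, sham 4 or PPE 1. The call of Itgb3 was lost in 7 of 10 such fits, all but those without sham 3, sham 5 or PPE 2. Blocking on slide left 2 of the list higher and 0 lower.

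Genes of the IL-6, IL-1, TNF and NF-kappaB pathways (cytokines, their receptors, transcription factors and feedback inhibitors) were mostly higher. In the study's cell cultures IL-6 raised Chi3l1, and recombinant CHI3L1 raised inflammatory genes. Which came first in these aortas was not tested. Of 14 tested, 12 rose and 0 fell, with a median of 1.36. Il1b rose by 5.80, Il6 by 4.33, Tnf by 2.18 and Socs3, a feedback gene of the STAT3 pathway, by 2.09. Red signal of Il6 was well above background on 5 arrays, all of them PPE. Its sham level is thus only bounded, as for Chi3l1, and the size of its change is uncertain. Il1b and Tnf were above background on 7 arrays each, so some of their values rest on dim signal. These genes are among the 12 that rose. Il6st, the shared receptor chain of the IL-6 family (0.48, limma adjusted p 0.0116), and Rela, the main NF-kappaB subunit (0.02), were not called, and Il1a was too dim to be tested.

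Genes of alternative activation, the setting in which Chi3l3 and Chi3l4 are best known, went both ways. Of 12 tested, 6 rose, 2 fell and 4 were not called, with a median of 0.92. Arg1 (arginase) rose by 3.50 and Il4ra, the IL-4 receptor chain, by 2.40. Retnla, the secreted protein most often measured beside Ym1 in that setting, fell by 2.03 (SE 0.39, limma adjusted p 0.00167) and the eosinophil chemokine Ccl24 by 1.32. The uncalled genes were Clec10a (1.04), Stat6 (0.63), Mgl2 (0.51) and Irf4 (-0.42). Il4, Il13 and Ccl22 were too dim to be tested, so the upstream cytokines of this setting could not be read. Chi3l3 and Retnla therefore moved in opposite directions on these arrays, 4.09 against -2.03.

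Of enzymes that break down N-acetylglucosamine glycans in the lysosome or salvage the sugar, 7 of 12 rose and 0 fell, with a median of 0.85. Lyz1, a lysozyme whose sequence is close to that of Lyz2, rose by 2.06. Renbp, which turns N-acetylglucosamine to N-acetylmannosamine, rose by 1.82, Gnpda1, which takes glucosamine-6-phosphate into glycolysis, by 1.61, and Amdhd2, the deacetylase of the salvage path, by 1.39. The chitobiase Ctbs, which trims the last sugar from such chains, was among the 5 not called.

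Leukocyte markers moved with Chi3l1 and Chi3l3. Of 8 macrophage markers 7 rose, with a median of 2.59 and Mertk as the uncalled gene, and of 6 neutrophil surface and mature granule genes 5 rose, with a median of 3.18 and Csf3r uncalled. Of 8 genes of neutrophil precursors 5 rose, with a median of 2.04. The largest changes were those of Fcgr1 (3.89) for macrophages, S100a8 (5.52) for mature neutrophils and Camp (3.18) for precursors. The mean log2 ratio of the macrophage list was 0.21 to 0.58 in sham and 2.27 to 3.44 in PPE. Over PPE arrays it ran from high to low as PPE 1, PPE 4, PPE 2, PPE 3 and PPE 5, which is also the order of Chi3l1 and of the mean over the inflammatory pathway list (1.27 to 1.66 in PPE). The precursor list was -0.12 to 0.03 in sham and 1.24 to 3.30 in PPE, and was highest on PPE 4 and then PPE 1, as were the neutrophil surface and mature granule list (0.56 to 0.73 in sham, 3.02 to 4.14 in PPE), Chi3l3 and Chi3l4. These orders rest on 5 arrays. The share of red spots above background ran in a similar order: PPE 1 (65.8%), PPE 2 (65.3%), PPE 4 (55.9%), PPE 3 (52.7%) and PPE 5 (45.8%). The part of array signal in these orders was not tested. Nor was the part of leukocyte number in the changes of Chi3l1 and Chi3l3.

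Among the other cell types, smooth muscle genes fell. Eosinophil genes had 2 of 5 higher, with a median of 0.65 and the defining marker Epx above background on 0 arrays, and T cell genes had 2 of 5 higher, with a median of 1.76. Without PPE 4, 4 T cell genes were called, and all 5 had an unadjusted p under 0.05 and were called by SAM. Mast cell, B cell, endothelial, adipocyte and skeletal muscle lists had 0 genes called in either direction in limma. At an unadjusted p under 0.05 these were 0 mast cell, 0 B cell, 1 endothelial (Cdh5), 3 adipocyte and 0 skeletal muscle genes, and SAM, the test of the study, called only Cdh5 among them. With slide as a fixed block, 2 adipocyte genes were lower and 1 endothelial gene was higher, and without sham 1 there was also 1 endothelial gene higher. Of 5 fibroblast genes 3 rose, with a median of 1.21. Smooth muscle genes fell in 5 of 6, with a median of -2.14, and Myh11 was the uncalled one (-0.74). Tagln had the largest decrease of that list, -2.95. With median centring, the macrophage, inflammatory and both neutrophil lists each had 3 genes higher, the other lists 0, and the smooth muscle list 0 lower.

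**Figure D4:**
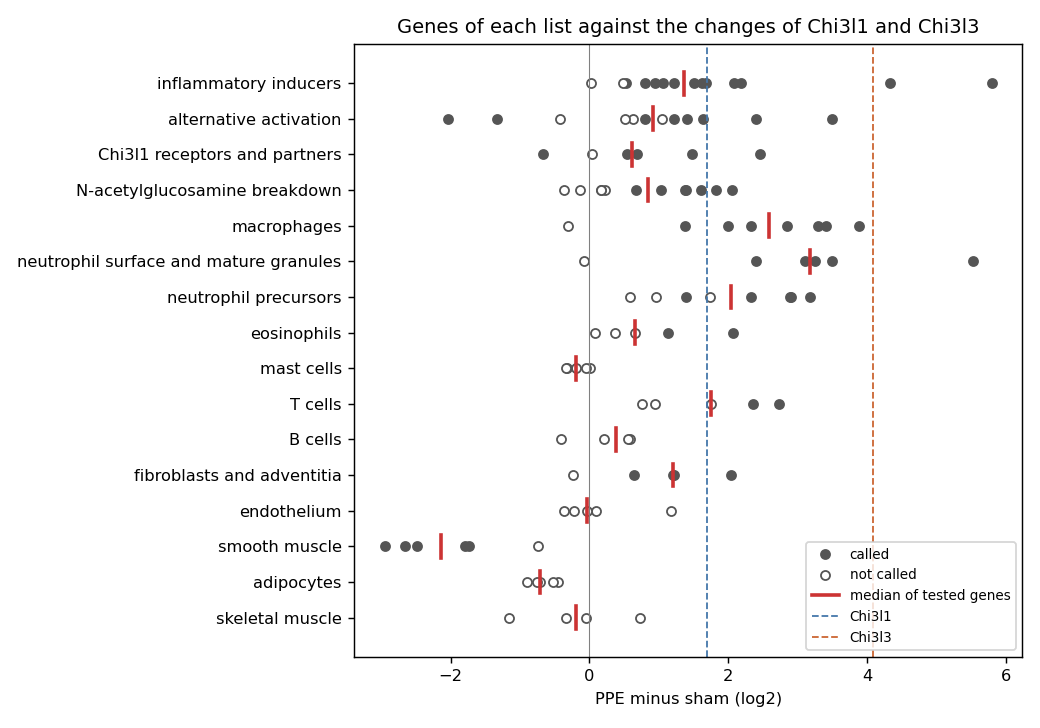
Change from sham to PPE on the log2 scale for each tested gene of 16 lists, with called genes filled (limma adjusted p under 0.01), the list median as a red bar, and the changes of Chi3l1 (1.69) and Chi3l3 (4.09) as dashed lines. Few genes lie to the right of the Chi3l3 line, while the medians of the macrophage, T cell and both neutrophil lists lie between the 2 lines.

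To place both genes among all others, each array's value less the sham mean was compared with that of 13925 RefSeq-named genes above background on all PPE arrays, by the root mean square difference over the 10 arrays. The genes most like Chi3l1 were Mrgpra2a (0.19), Gpr141 (0.20), Tcfec (0.20), Slc16a10 (0.23) and Rab20 (0.23). Mrgpra2a and Gpr141 are G protein-coupled receptor genes, Tcfec encodes a transcription factor of the macrophage lineage, Slc16a10 an amino acid transporter and Rab20 a small GTPase. Those most like Chi3l3 were Il6 (0.48), Rgs16 (0.54), Gm5483 (0.56), Clec4e (0.68) and Gp49a (0.70), where Clec4e is a myeloid receptor for cord factor and cell debris and Gm5483 (RefSeq Cstdc4) belongs to the stefin family of protease inhibitors. The distances of the Chi3l3 set were all larger than those of the Chi3l1 set. Distances were not scaled to the size or spread of a gene's change, both larger for Chi3l3. They therefore do not compare how distinct each profile is.

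**Figure D5:**
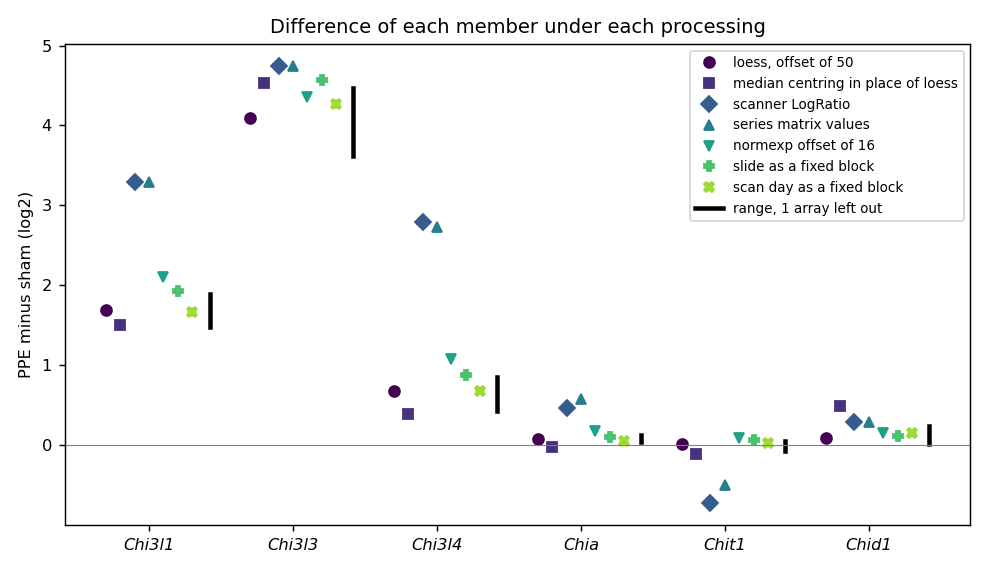
Difference between PPE and sham on the log2 scale for each member under 7 processing settings (symbols) and the range when each array was left out in turn (black bar). Chi3l3 lies between 3.62 and 4.75 throughout, Chi3l1 between 1.47 and 3.29, and Chi3l4 between 0.39 and 2.80. Chia lies between -0.03 and 0.58, Chit1 between -0.72 and 0.09, and Chid1 between 0.02 and 0.48. Chia, Chit1 and Chid1 were past the threshold in no setting that gave a test.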

How the data were processed

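Infrarenal aortic RNA of 5 sham and 5 PPE mice was read on 2-color Agilent arrays. Per the file headers, the authors' spot signals came from Agilent Feature Extraction (version 10.7.3.1). They left out arrays of poor hybridization, and removed outliers by clustering and principal components; which ones is not stated. Per the file headers, 62976 spots were read, 59305 of them not controls. The deposited spot signals and backgrounds are a linear intensity. The deposited LogRatio is a log10 ratio, turned to log2. The authors' series matrix holds log2 ratios, equal to those of processed red over green signal on 100% of spots within 1e-04.

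Mean signals were corrected with normexp (offset 50, over local background) and normalized by loess in limma 3.58.1 (R 4.3.3), without controls and 176 to 331 outlier spots per array. A probe entered the test when 5 or more of 10 arrays had red signal well above background, with the brightest such probe standing for a gene name. Of 22520 names, 16219 matched RefSeq. Groups were compared unpaired with lmFit and eBayes, with Benjamini-Hochberg adjustment and a threshold of 0.01. Untested members and differences between members were compared by two-sided exact permutation of the arrays (threshold 0.05). For probes dim in 1 group, a fold was taken on red values after normexp with the offset of 50, loess and Aquantile. It was set against the lowest signal well above background or the dim probe's own, whichever was higher. It is a ratio of group means and carries no interval. The script was tested on simulated data. Replicates are separate mice, 1 per array, and their number limits the precision.

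Named genes were the 6 members, the other GH18 genes and the miR-24-1 host gene, up to 4 called and, where 4 or fewer, the uncalled genes of each list, and the 5 genes nearest to each called member. Members and lists were chosen with earlier results of these data known. Promoter windows were aligned with Biopython 1.88 (local, match 1, mismatch -1, gap open -4, gap extend -1). Exon and UTR annotation on mm9 was not used here.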

Additional observations from a re-analysis of the deposited data

Results flagged for a closer look

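In 38 groups of 5 values of the members' log2 ratios and signals, 3 had 1 array far from the other 4 by Dixon's criterion (critical value 0.71), which chance gives in about 5% of groups. The Chit1 ratio of sham 2 was -0.397, with the next at 0.058. The Chid1 ratio of PPE 2 was -1.52, with the next at -0.887. The log2 green signal of Chid1 on PPE 1 was 9.80, with the next at 9.39. Neither gene was called in any alternative tried, and the values are given without an explanation.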

How the results depend on the processing

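Chi3l3 kept its direction and its side of the threshold in all 14 alternatives and 10 fits without 1 array, at 4.09 to 4.75 and 3.62 to 4.46. Chi3l1 did so except under median centring (1.51, limma adjusted p 0.0466), and ranged from 1.47 to 1.90 without 1 array. Some alternatives could not move these values. Aquantile leaves the ratios as they are, so value and p stayed those of the main fit. Mean of probes, no filter, the replicate block and SAM keep the value of a gene with 1 probe, and only its test could move. For Chi3l4, median centring gave 0.39 and limma without a filter 0.67, both short of the threshold, and leaving out 1 array gave 0.43 to 0.85. The difference of Chi3l1 from Chi3l4 was 0.49 with the scanner's log ratio and 0.56 with the series matrix, both short of it. Background counts of higher genes were 408 with median centring and 4885 with SAM, the study's own test written anew with 100 drawn relabellings. Those of lower genes were 8 with median centring. There the lists, leaving out the miR-24-1 host gene, together held 12 higher and 0 lower calls in place of 52 and 8. The cause was not tested. Chia, Chit1 and Chid1 passed in no alternative. The differences of Chi3l1 from Chi3l3 and Chid1 kept direction and call in the alternatives run for them. All of these read the same dim sham signal of Chi3l1, so they do not settle the direction against Chi3l3.

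The labels give replicate numbers without naming a pairing. Correlations of same-numbered arrays ran from -0.30 to 0.52, and 2 of 5 PPE arrays correlated best with their own number. With so few arrays this cannot exclude a pairing, and the groups were compared unpaired. With the replicate block, 3024 genes were higher and 2281 lower, Chi3l1 changed by 1.69 (limma adjusted p 0.00454) and Chi3l3 by 4.09. Without sham 5 and PPE 5, the arrays with the fewest red spots above background (an alternative chosen after seeing the data), Chi3l1 changed by 1.93 and Chi3l3 by 4.50. For members below the limma filter, blocks gave values without a test, and the filter on all 10 arrays, the mean of probes, the random slide block and SAM gave none. The filter on all 10 arrays also gave none for Chi3l1 and Chid1. Chia and Chit1, above background on 0 of 10 arrays, are limited by signal.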
